A study of Mus musculus with 24 samples.

Results

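mmu-miR-221 and mmu-miR-222 are 2 of the 558 mouse miRNA probes on the arrays analysed here and 2 of the 365 that passed the filter on dim probes. They were taken by an exact match of the mature name in the array annotation, a step that used no measured value. The pair itself was chosen with earlier results of these data known, so its ranks below are descriptions. Both were followed across 24 arrays of RNA from 3 mouse mammary carcinoma lines, 4T1 (highly metastatic, per the labels), 4TO7 (systemically invasive) and 67NR (nonmetastatic). Each line had been propagated for 6 days in 3-dimensional organotypic culture in a rigid or a compliant microenvironment, whose stiffness the labels do not quantify.

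One set of cultures received TGF-beta and the other an inhibitor that blocks its type I receptor, a state the labels call basal. This gives 4 groups in each of 4T1, 4TO7 and 67NR: rigid with TGF-beta, rigid with inhibitor, compliant with TGF-beta and compliant with inhibitor. The labels name no transgene, deletion or host animal, so the groups of a line share that line's genotype and differ in treatment and microenvironment. Each of the 12 groups had 2 arrays, named set 1 and set 2. The labels do not say whether the sets were separate cultures, and the p-values below measure only the spread between these arrays. Every culture had one agent or the other, so what TGF-beta did and what blocking its receptor did cannot be told apart.

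A miRNA guides the Argonaute silencing complex to messenger RNAs that pair with its seed, the bases near its 5′ end. miR-221 and miR-222 are processed from a shared primary transcript, carry the same seed, and are best known for repressing the cyclin-dependent kinase inhibitors p27 (Cdkn1b) and p57 (Cdkn1c), which hold cells out of the division cycle. In human breast cancer cells they also repress estrogen receptor alpha and TRPS1, a transcription factor that restrains ZEB2, and they are more abundant in basal-like than in luminal cells. TGF-beta is a cytokine that arrests normal epithelial cells, in part through CDK inhibitors, and that promotes epithelial-mesenchymal transition.

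The mature sequences show what the pair shares, and the bases in capitals are the seed, bases 2 to 8 from the 5′ end. They are the 3p strands, as RefSeq annotates them on the mouse build GRCm38.p6, and the third entry is the only other mature miRNA with that seed.
mmu-miR-221-3p: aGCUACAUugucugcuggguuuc
mmu-miR-222-3p: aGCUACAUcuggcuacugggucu
mmu-miR-1928: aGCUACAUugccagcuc
miR-221 and miR-222 have the same first 8 bases, and 11 of their 23 positions are identical. Cross-hybridisation between the probes was not tested. Of 1679 mature mouse miRNAs in the RefSeq table, 3 carried this seed. miR-1928, a miRNA from chromosome 1, shares its first 10 bases with miR-221 and had no probe on the arrays.

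Both genes lie on the minus strand of chromosome X. The mature miR-221 maps to chrX:19146307-19146329 and the mature miR-222 to chrX:19146901-19146923. The hairpins from which they are cut are shown with the mature strand in capitals, because it is this strand, on the 3′ arm, that the probes name.
Mir221, chrX:19146294-19146388, minus strand: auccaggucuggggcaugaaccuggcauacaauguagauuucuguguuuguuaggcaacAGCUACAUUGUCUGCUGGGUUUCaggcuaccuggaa
Mir222, chrX:19146893-19146971, minus strand: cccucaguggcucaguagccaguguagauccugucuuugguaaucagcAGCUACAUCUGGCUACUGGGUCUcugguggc
The hairpins are 95 and 79 bases long and 504 bases apart, with Mir222 upstream. The passenger strands of the hairpins had no probe on the arrays.

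Both miRNAs were detected on all 24 arrays, with a presence p-value of 0 as deposited and no fail code. The relative intensity, the sample signal in the dye DY649 over a synthetic reference in DY547 on the same spot, was 488 to 1942 for miR-221 (median 1047) and 362 to 1453 for miR-222 (median 749). The percent error of these values, computed from the deposited error, was 2.73 to 9.47 for miR-221 and 2.21 to 6.48 for miR-222. Across the arrays, 313 to 357 miRNA probes were detected, and the median percent error of an array was 5.72 to 9.06. After normalization the residual SD between the arrays of a group was 0.13 (log2) for miR-221 and 0.06 for miR-222, against a median of 0.08 over the 365 tested probes, so smaller differences could be resolved for miR-222.

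Markers were checked beside the members. Of the epithelial markers, miR-200b, miR-200c and miR-429 were detected on all 8 4T1 arrays and on none of the other lines. The summed epithelial level (6 probes) was 1564 to 1817 in 4T1, 412 to 564 in 4TO7 and 384 to 411 in 67NR. miR-141 was detected on all 24 arrays, miR-200a on 15 (8 of 4T1, 6 of 4TO7 and 1 of 67NR) and miR-205 on 2 of 4TO7, both with inhibitor. Of the mesenchymal markers, miR-143 was detected on the 8 67NR arrays only, and miR-145, miR-199a-5p and miR-214 on all 24. The summed mesenchymal level (5 probes) was 6993 to 8821 in 4T1, 8864 to 9599 in 4TO7 and 11902 to 14255 in 67NR. Neither endothelial marker (miR-126-3p, miR-126-5p) was detected on any array, nor were the blood markers miR-142-3p, miR-142-5p, miR-144 and miR-223, whereas miR-451 was detected on all 24. The summed level of each of the 6 marker lists overlapped between TGF-beta and inhibitor arrays: it was 384 to 1817 against 398 to 1747 for the epithelial list, and 1324 to 1872 against 1262 to 1749.97 for the 5 blood markers. These ranges pool the 3 lines, whose levels differ, so the overlap cannot show whether markers changed with treatment within a line. The epithelial medians were 422.9 with TGF-beta and 496.5 with inhibitor.

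The first comparison asks how the pair responds to TGF-beta signalling. miR-222 and miR-221 were about 2.10-fold lower with TGF-beta than with the inhibitor over the 3 lines, and they ranked first and second from the lowest of the 365 tested probes. The decrease was called in each line and in each of the 6 combinations of line and microenvironment. RNA came from whole cultures, so fewer cells with the miRNA and less of it per cell cannot be told apart. The deposited intensities, given with set 1 before set 2, show it directly.

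In 4T1, miR-221 read 572 and 550.3 in rigid TGF-beta cultures and 858 and 728 in compliant TGF-beta cultures, against 1106 and 1117 in rigid inhibitor cultures and 1079.8 and 1942 in compliant inhibitor cultures. In 4T1, miR-222 read 499.5 and 454 in rigid TGF-beta cultures and 716 and 653 in compliant TGF-beta cultures, against 957 and 994 in rigid inhibitor cultures and 1002 and 1453 in compliant inhibitor cultures. All 4 TGF-beta arrays lay below all 4 inhibitor arrays for each miRNA. The highest intensity of both in the series came from 1 array, compliant inhibitor set 2, which stood well above set 1 of the same group. After quantile normalization the log2 values of those 2 arrays were 10.19 and 10.21 for miR-222, closer than its residual SD, and 10.25 and 10.67 for miR-221.

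In 4TO7, miR-221 read 603 and 642 in rigid TGF-beta cultures and 745 and 1023 in compliant TGF-beta cultures, against 1430.4 and 1385 in rigid inhibitor cultures and 1670.4 and 1646 in compliant inhibitor cultures. In 4TO7, miR-222 read 467 and 529.8 in rigid TGF-beta cultures and 581 and 704 in compliant TGF-beta cultures, against 1022 and 1063 in rigid inhibitor cultures and 1156 and 1076 in compliant inhibitor cultures. The treatments again did not overlap, and within the TGF-beta arrays the rigid cultures were the lower ones.

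In 67NR, miR-221 read 537 and 631 in rigid TGF-beta cultures and 488 and 517 in compliant TGF-beta cultures, against 1358 and 1213 in rigid inhibitor cultures and 1423 and 1071 in compliant inhibitor cultures. In 67NR, miR-222 read 434 and 509.6 in rigid TGF-beta cultures and 362 and 389.6 in compliant TGF-beta cultures, against 993 and 878 in rigid inhibitor cultures and 921 and 781 in compliant inhibitor cultures. Here too the treatments were apart, but among the TGF-beta arrays the compliant cultures were the lower ones.

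**Figure D1:**
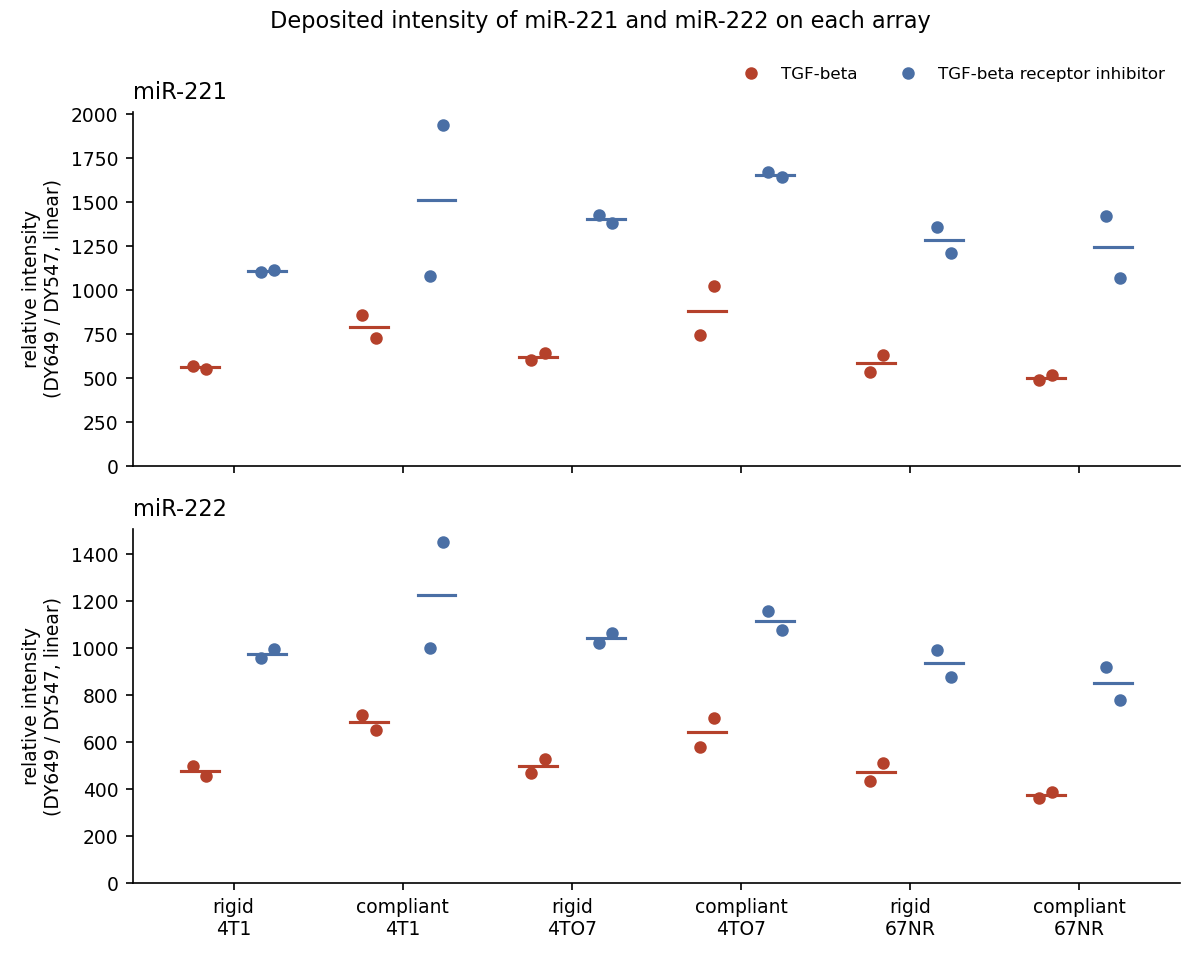
Deposited relative intensity (linear scale, sample dye over reference dye) of miR-221 (top) and miR-222 (bottom) on each of the 24 arrays. Each point is 1 array, each bar the mean of 2, with TGF-beta left of inhibitor in every line and microenvironment; miR-221 spans 488 to 1023 with TGF-beta and 1071 to 1942 with inhibitor, and the treatments do not overlap.

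Over the 3 lines the 12 TGF-beta arrays ran from 488 through a median of 617 to 1023 for miR-221, and the 12 inhibitor arrays from 1071 through 1371 to 1942. For miR-222 the 12 TGF-beta arrays ran from 362 through 505 to 716, and the 12 inhibitor arrays from 781 through 998 to 1453. No TGF-beta array of any line reached the lowest inhibitor array of any line, for either miRNA. How many tested probes were apart in this way, over all lines or within a line, was not counted. Within each of the 6 combinations of line and microenvironment, both miRNAs had every TGF-beta array below every inhibitor array on normalized values. The same held for 17 of the 365 tested probes (4.66%), the pair included.

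On normalized values, miR-221 was lower with TGF-beta by a log2 difference of -1.07 ± 0.05 (SE, 12 against 12 arrays, limma adjusted p = 7.6e-11). miR-222 differed by -1.07 ± 0.03 (limma adjusted p = 1.5e-14). In this comparison 39.5% of the tested probes were called in either direction and 18.1% as lower, so a call by itself is common; the median log2 difference of all 365 probes was 0.01. The balance of calls depends on the scaling: the authors' value table gave 110 higher and 50 lower, median scaling 43 and 84, the median over probes detected on every array 100 and 52, and spike-in scaling 18 and 7, against 78 and 66 here.

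The size of the response was similar in each line. In 4T1 it was -1.09 ± 0.09 for miR-221 and -1.11 ± 0.05 for miR-222, with 19.2% of probes called lower. In 4TO7 it was -1.16 ± 0.09 for miR-221 and -1.17 ± 0.05 for miR-222, with 11.8% called lower. In 67NR it was -0.97 ± 0.09 for miR-221 and -0.94 ± 0.05 for miR-222, with 7.67% called lower. The pair held the lowest 2 ranks of 365 in 4TO7 and 67NR, and ranks 2 and 3 in 4T1. All these adjusted p-values in limma lay at or below 8.2e-07.

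**Figure D2:**
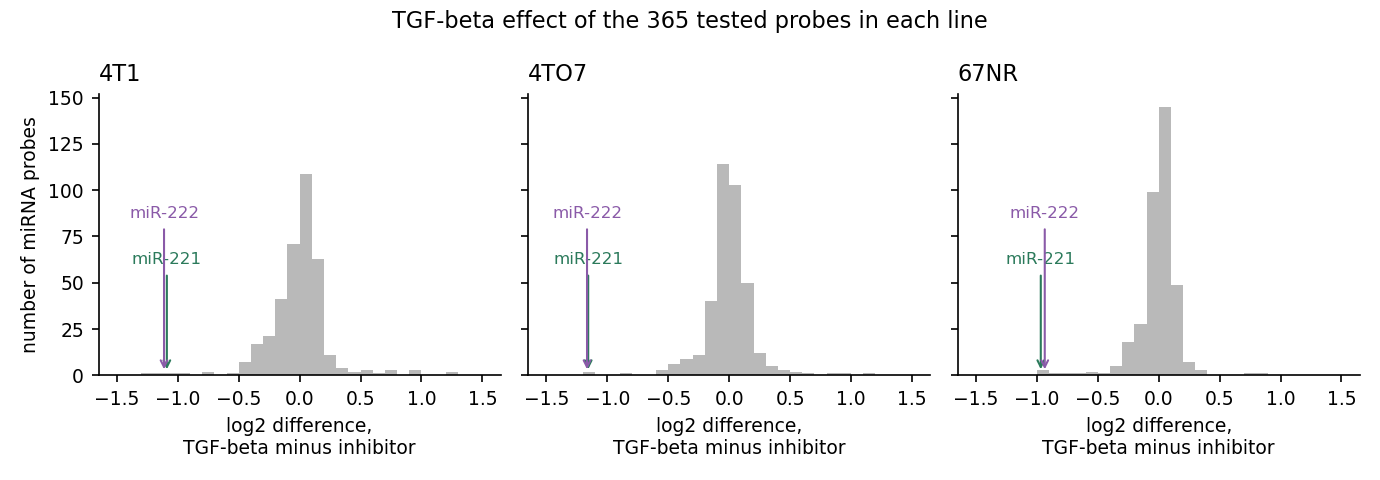
Histograms of the log2 difference, TGF-beta minus inhibitor, of the 365 tested miRNA probes in 4T1, 4TO7 and 67NR (x axis), with the number of probes on the y axis. Arrows mark miR-221 and miR-222, which lie between -1.17 and -0.94, at the far left of each distribution, whose medians lie between 0.00 and 0.02.

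Split by microenvironment, the response of miR-221 was -1.15 ± 0.13 in rigid 4T1, -1.03 ± 0.13 in compliant 4T1, -1.21 ± 0.13 in rigid 4TO7, -1.10 ± 0.13 in compliant 4TO7, -0.91 ± 0.13 in rigid 67NR and -1.03 ± 0.13 in compliant 67NR (SE, 2 against 2 arrays). The response of miR-222 in the same settings was -1.23 ± 0.07, -0.99 ± 0.07, -1.30 ± 0.07, -1.04 ± 0.07, -0.83 ± 0.07 and -1.04 ± 0.07. All 12 values were called, the highest limma adjusted p being 0.00016 (miR-221 in rigid 67NR); under spike-in scaling the calls of both miRNAs in compliant 4T1 and compliant 4TO7 were lost. The share of probes called lower in these 6 settings, in the same order, was 12.6%, 10.7%, 8.22%, 8.77%, 3.29% and 6.3%. Pooled over lines, the response was -1.09 ± 0.07 for miR-221 and -1.12 ± 0.04 for miR-222 in rigid cultures (14.2% called lower), and -1.05 ± 0.07 for miR-221 and -1.02 ± 0.04 for miR-222 in compliant cultures (15.6% called lower).

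The arrays lay on 5 slides of 4 to 6 arrays, and 4 line and microenvironment settings had both treatments on 1 slide. Within those slides miR-221 differed by -1.24 in rigid 4TO7, -0.90 in compliant 4TO7, -1.07 in rigid 67NR and -1.11 in compliant 67NR. miR-222 differed by -1.32, -1.03, -0.92 and -1.09 in the same settings. The response was thus present between arrays of 1 slide, from -1.32 to -0.90, for both miRNAs smaller than the fitted value in compliant 4TO7 and larger than it in the other settings. No 4T1 setting had its treatments together on a slide, so that line has no within-slide value; with slide as a fixed block over all lines both miRNAs gave -1.08.

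**Figure D3:**
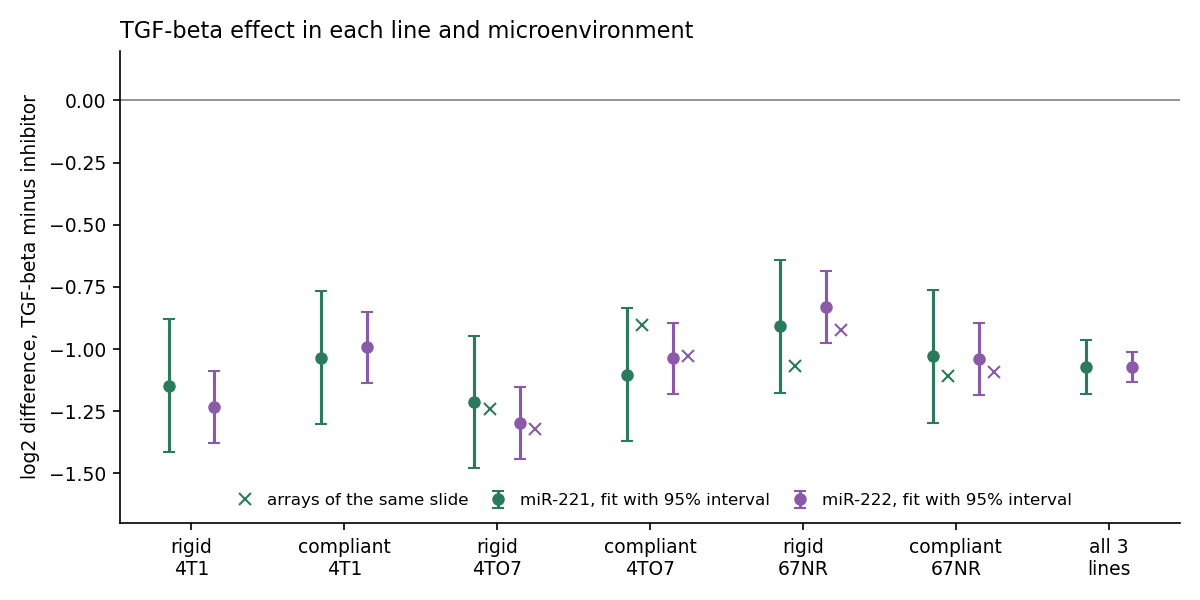
Log2 difference, TGF-beta minus inhibitor, of miR-221 and miR-222 in each line and microenvironment and over all 3 lines (x axis). Points with bars are fitted values with 95% intervals and crosses the difference between arrays of 1 slide; the fitted values lie between -1.30 and -0.83 and the crosses between -1.32 and -0.90, and no interval reaches 0.

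Differences of the response between conditions were small beside the response itself. The TGF-beta effect in rigid minus that in compliant cultures was -0.03 ± 0.10 for miR-221 (limma adjusted p = 0.95) and -0.10 ± 0.06 for miR-222 (limma adjusted p = 0.88). No probe of 365 (0%) was called by limma in that comparison, and 22 had an unadjusted p under 0.05. Between lines, the F test of the TGF-beta effect gave a limma adjusted p of 0.51 for miR-221 and 0.060 for miR-222, where 14.5% of probes were called. The miR-222 test was called with set as a replicate block (F = 7.71), and without any 1 of 3 arrays, both rigid inhibitor arrays of 4T1 and set 1 of rigid inhibitor 67NR (down to 0.025).

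Of the pairwise differences, miR-222 responded more in 4TO7 than in 67NR, by -0.23 ± 0.07 (limma adjusted p = 0.040, 11.5% of probes called). That call was lost with no detection filter (0.061), with slide as a fixed block (0.087), under each of the other scalings and without any 1 of 14 arrays (up to 0.095), and under spike-in scaling the direction turned (0.22). The 4T1 minus 67NR difference of miR-222 was -0.18 ± 0.07 (limma adjusted p = 0.12, 6.85% called), and the 4T1 minus 4TO7 difference was 0.05 ± 0.07 (0.74, 11.2% called). For miR-221 the 3 differences were -0.19, -0.12 and 0.07, each ± 0.13, and none passed; their 95% intervals ran from -0.46 to 0.08, from -0.39 to 0.15 and from -0.20 to 0.33.

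The second comparison asks what rigidity does to the pair. Over the 3 lines both miRNAs were slightly lower in rigid than in compliant cultures, by 1.14-fold for miR-221 and 1.09-fold for miR-222. The decrease passed the test in 4T1, and for miR-222 the effect there differed from that in 67NR. The log2 difference over all lines was -0.19 ± 0.05 for miR-221 (limma adjusted p = 0.015) and -0.13 ± 0.03 for miR-222 (limma adjusted p = 0.0054). In this comparison 21.9% of probes were called and 11.2% as lower, and the pair ranked 7th (miR-221) and 20th (miR-222) from the lowest of 365. The call of miR-221 was lost with slide as a fixed block (-0.18, limma adjusted p = 0.098) and both were lost under spike-in scaling.

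In 4T1 the rigid minus compliant difference was -0.29 ± 0.05 for miR-222 (limma adjusted p = 0.00097) and -0.31 ± 0.09 for miR-221 (limma adjusted p = 0.045), where 3.84% of probes were called lower; both calls were lost under spike-in scaling. In 4T1 the deviations of same-numbered arrays correlated at 0.23 to 0.49. With set as a replicate block the call of miR-221 was lost (limma adjusted p = 0.065) while that of miR-222 was kept (0.00095). The miR-221 call was lost without any 1 of 17 of the 24 arrays. Its value moved most with the 2 compliant inhibitor arrays that differ: it was -0.20 (limma adjusted p = 0.14) without set 2 of that group and -0.41 (0.0044) without set 1.

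In 4TO7 the difference was -0.27 ± 0.09 for miR-221 (limma adjusted p = 0.11) and -0.17 ± 0.05 for miR-222 (limma adjusted p = 0.067), and 1.92% of probes were called lower. In 67NR it was -0.00 ± 0.09 for miR-221 (95% interval -0.19 to 0.19) and 0.08 ± 0.05 for miR-222 (limma adjusted p = 0.31), where 11% of probes were called in either direction. The direction of the miR-221 value in 67NR changed sign with the scaling.

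The rigidity effect on miR-222 differed between lines (F = 16.2, limma adjusted p = 0.0082), in a test that called 8.22% of probes; under spike-in scaling this call and those of both differences from 67NR were lost. It was lower in 4T1 than in 67NR by -0.38 ± 0.07 (limma adjusted p = 0.0031, 5.48% called) and lower in 4TO7 than in 67NR by -0.26 ± 0.07 (limma adjusted p = 0.033, 6.85% called). The 4TO7 call was lost with slide as a fixed block (0.10), with no detection filter (0.051) and without any 1 of 13 arrays (up to 0.084). The difference between 4T1 and 4TO7 was -0.12 ± 0.07 (limma adjusted p = 0.63, 1.64% called). For miR-221 the F test did not pass (F = 3.54, limma adjusted p = 0.27), with differences of -0.31 ± 0.13, -0.27 ± 0.13 and -0.04 ± 0.13 for the same 3 pairs of lines.

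Within treatments, the effect of rigidity on miR-222 was -0.18 ± 0.04 with TGF-beta (limma adjusted p = 0.0099, 4.38% called lower) and -0.08 ± 0.04 with inhibitor (limma adjusted p = 0.24, 3.56% called lower). For miR-221 it was -0.21 ± 0.07 with TGF-beta (limma adjusted p = 0.093) and -0.18 ± 0.07 with inhibitor (limma adjusted p = 0.16). The difference between the treatments is the interaction given above, which did not pass for either miRNA.

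With TGF-beta, miR-222 was lower in rigid cultures by -0.41 ± 0.07 in 4T1 (limma adjusted p = 0.0010, 3.01% of probes called lower) and by -0.30 ± 0.07 in 4TO7 (limma adjusted p = 0.019, 1.64% called lower). The 4TO7 call was lost without any 1 of its own 4 arrays (up to 0.12). In 67NR with TGF-beta it was 0.19 ± 0.07, which did not pass (limma adjusted p = 0.15, 4.93% called). With inhibitor the values of miR-222 were -0.17 ± 0.07 in 4T1, -0.04 ± 0.07 in 4TO7 and -0.02 ± 0.07 in 67NR, and none passed (1.37% of probes were called lower in 4T1 and 1.37% in 4TO7). For miR-221 the values with TGF-beta were -0.36, -0.33 and 0.06, and those with inhibitor -0.25, -0.22 and -0.06, in 4T1, 4TO7 and 67NR, each ± 0.13 and none called. When 1 array was left out, miR-221 ran from -0.47 to -0.04 in 4T1 with inhibitor and from -0.49 to -0.16 in 4TO7 with TGF-beta, and miR-222 from -0.27 to -0.08 in 4T1 with inhibitor, with no call.

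**Figure D4:**
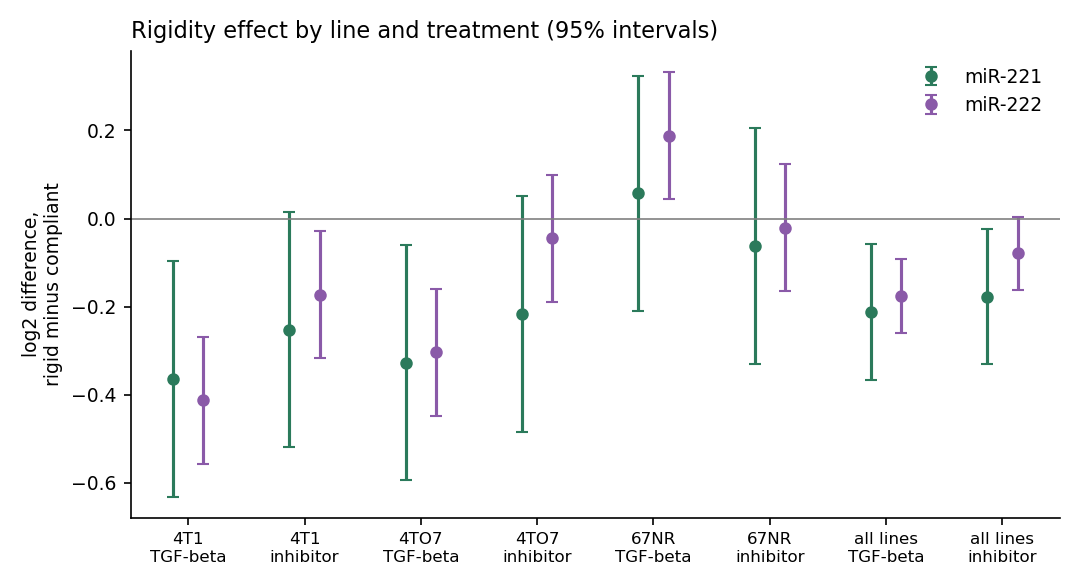
Log2 difference, rigid minus compliant, of miR-221 and miR-222 by line and treatment, with 95% intervals (y axis). The values of miR-222 with TGF-beta lie at -0.41 in 4T1, -0.30 in 4TO7 and 0.19 in 67NR. With inhibitor the intervals exclude 0 for miR-222 in 4T1 (-0.32 to -0.03) and for miR-221 over all lines (-0.33 to -0.02), and include it elsewhere. The difference of the rigidity effect between treatments was not called for either miRNA.

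Rigid and compliant arrays of 1 line and treatment shared a slide in 3 settings. Within those slides miR-221 differed by -0.36 in 4T1 with TGF-beta, -0.08 in 4T1 with inhibitor and -0.19 in 4TO7 with TGF-beta. miR-222 differed by -0.37, -0.26 and -0.35 in the same settings. Each of these 3 comparisons was below 0 for both miRNAs, which were read on the same arrays, and no slide held a 67NR pair.

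Rigid cultures with TGF-beta set against compliant cultures with inhibitor, the widest contrast of the design, gave -1.27 ± 0.07 for miR-221 (limma adjusted p = 1.6e-09) and -1.20 ± 0.04 for miR-222 (limma adjusted p = 1.6e-12). They ranked first and second from the lowest, and 16.4% of probes were called lower.

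The third comparison is between the lines, over both treatments and both microenvironments. Both miRNAs were highest in 4TO7, and miR-222 was lowest in 67NR. Since 93.7% of probes were called in the F test between lines, a call here says little about the pair. 4TO7 exceeded 67NR by 0.55 ± 0.06 for miR-221 (limma adjusted p = 6.6e-07) and by 0.47 ± 0.03 for miR-222 (limma adjusted p = 2.5e-09), where 29.9% of probes were called higher. Under spike-in scaling these values were 0.27 (limma adjusted p = 0.039) and 0.26 (0.045), and the calls over all probes were 60 higher and 234 lower, against 109 and 208 here. 4T1 exceeded 67NR by 0.29 ± 0.03 for miR-222 (limma adjusted p = 5.9e-07) and by 0.18 ± 0.06 for miR-221 (limma adjusted p = 0.013), where 30.7% were called higher. The miR-221 value fell to 0.05 under median scaling, and the call was lost (limma adjusted p = 0.41), as it was under spike-in scaling (0.14, limma adjusted p = 0.31).

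4T1 was lower than 4TO7 by -0.37 ± 0.06 for miR-221 (limma adjusted p = 0.00011) and by -0.18 ± 0.03 for miR-222 (limma adjusted p = 0.00032), a comparison in which 40% of probes were called lower. The balance of calls in it was 84 higher and 146 lower, but 69 and 194 under median scaling, 68 and 198 with the median over probes detected on every array, and 109 and 3 under spike-in scaling. Under spike-in scaling the miR-222 value turned to 0.09 and the miR-221 value was -0.13, neither called. Arrays of different lines that shared a slide and a setting gave 0.28 to 0.80 for miR-221 and 0.10 to 0.65 for miR-222 between 4TO7 and 67NR (3 pairs). They gave 0.29 to 0.50 and 0.44 to 0.47 between 4T1 and 67NR (2 pairs, both compliant), and -0.56 to -0.38 and -0.27 to -0.11 between 4T1 and 4TO7 (2 pairs). In rigid TGF-beta cultures the group means of 4T1 were below those of 67NR, at 9.06 against 9.15 for miR-221 and 8.79 against 8.89 for miR-222. The epithelial and mesenchymal marker levels given above also differ between the lines; their part in these differences was not tested.

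Ordered by normalized level, all 6 TGF-beta groups stood below all 6 inhibitor groups for each miRNA. The share of all tested probes with such an order of group means was not counted. miR-221 ran upward from 9.06 in rigid TGF-beta 4T1 through 9.10 in compliant and 9.15 in rigid TGF-beta 67NR to 9.41 in rigid TGF-beta 4TO7, 9.43 in compliant TGF-beta 4T1 and 9.74 in compliant TGF-beta 4TO7. Its inhibitor groups continued at 10.06 (rigid 67NR), 10.13 (compliant 67NR), 10.21 (rigid 4T1), 10.46 (compliant 4T1), 10.63 (rigid 4TO7) and 10.84 (compliant 4TO7). The 3 lowest groups did not differ beyond the residual SD of 0.13, nor did rigid TGF-beta 4TO7 from compliant TGF-beta 4T1, nor the neighbours among rigid 67NR, compliant 67NR and rigid 4T1 with inhibitor.

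miR-222 ran upward from 8.70 in compliant TGF-beta 67NR through 8.79 (rigid 4T1), 8.89 (rigid 67NR), 8.998 (rigid 4TO7) and 9.21 (compliant 4T1) to 9.30 (compliant 4TO7), all with TGF-beta. Its inhibitor groups followed at 9.72 (rigid 67NR), 9.74 (compliant 67NR), 10.03 (rigid 4T1), 10.20 (compliant 4T1), 10.29 (rigid 4TO7) and 10.34 (compliant 4TO7). Only the rigid and compliant inhibitor groups of 67NR, and those of 4TO7, were closer than the residual SD of 0.06. The gap between the treatments, from the highest TGF-beta group to the lowest inhibitor group, was 0.32 for miR-221 and 0.42 for miR-222. The replicate SD of a group ran from 0 to 0.30 for miR-221 and from 0.01 to 0.14 for miR-222; the SD of 0 belongs to rigid TGF-beta 4T1, where quantile normalization gave both arrays the same value although 572 and 550.3 were deposited.

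Whether the pair moved by the same amount was tested on the log2 response of miR-221 minus that of miR-222, with an exact permutation test within strata. For TGF-beta against inhibitor the difference was 8e-05 (exact permutation p = 0.9986) on quantile-normalized values, and it ran from -0.034 to 0.034 when 1 array was left out. A p of this size does not show that the responses were equal, and the value depends on the scaling. With any single constant per array, as in the authors' value table, median scaling or spike-in scaling, the constant cancels and the difference was -0.09, miR-221 falling the more (exact permutation p = 0.028, 0.035 adjusted over 5 contrasts).

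The other contrasts of the pair were added after the values were seen. For rigid against compliant, the miR-221 response minus the miR-222 response was -0.07 (exact permutation p = 0.17), and -0.08 with a constant per array (exact permutation p = 0.023). For 4T1 against 4TO7 it was -0.19 (exact permutation p = 0.0031, 0.015 adjusted) and -0.22 with a constant per array (exact permutation p = 0.0015, the smallest the design can give). For 4T1 against 67NR it was -0.11 (exact permutation p = 0.062), and -0.21 with a constant per array (exact permutation p = 0.0015). On quantile-normalized values this difference depended on the compliant inhibitor arrays of 4T1: it was -0.16 without set 2 and -0.06 without set 1. For 4TO7 against 67NR it was 0.08 (exact permutation p = 0.12), and 0.01 with a constant per array (exact permutation p = 0.70); without set 1 of compliant TGF-beta 4TO7 it was 0.13 and called (exact permutation, adjusted p = 0.019). The 4T1 minus 4TO7 difference was thus the lower one for miR-221 in both kinds of scaling; on quantile-normalized values its call was lost without any 1 of 7 arrays (exact permutation, adjusted p up to 0.15).

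Across the 12 group means miR-221 and miR-222 ran closely together, with Pearson r = 0.988, and r = 0.996 after each line's mean was subtracted. The other 356 tested probes with a single name had a median r of -0.18 with the mean of the pair. These are descriptions over 12 means that share arrays, normalization and the treatment contrast. The miRNAs named next were picked by their correlation with the pair over these means, which are set apart by treatment. Their direction with TGF-beta thus largely follows from the picking and is no separate evidence.

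Most like the pair were miR-30c (r = 0.82), miR-193b (r = 0.81), let-7b (r = 0.79), miR-484 (r = 0.78) and miR-450a-5p (r = 0.77). All 5 fell with TGF-beta over the lines, by less than the pair: miR-193b by 0.63 ± 0.04, miR-30c by 0.30 ± 0.04, miR-450a-5p by 0.29 ± 0.02, miR-484 by 0.28 ± 0.03 and let-7b, a let-7 family member, by 0.26 ± 0.04. miR-30c was detected on 18 arrays and miR-450a-5p on 6, the others on all 24. After subtracting line means, the highest were miR-30c (r = 0.97), miR-100 (r = 0.97) and let-7c (r = 0.96). miR-100 fell with TGF-beta by 0.37 ± 0.03 and let-7c by 0.25 ± 0.03.

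The most opposed were miR-22 (r = -0.80), its passenger strand miR-22* (r = -0.80, detected on 14 arrays) and miR-181b (r = -0.77). They rose with TGF-beta by 0.74 ± 0.03, 0.27 ± 0.03 and 0.92 ± 0.02, a direction that the picking largely sets. miR-22 rose most in 4T1 (1.26, against 0.62 in 4TO7 and 0.34 in 67NR), whereas the values of miR-181b were 0.97, 0.98 and 0.80 in the same order.

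**Figure D5:**
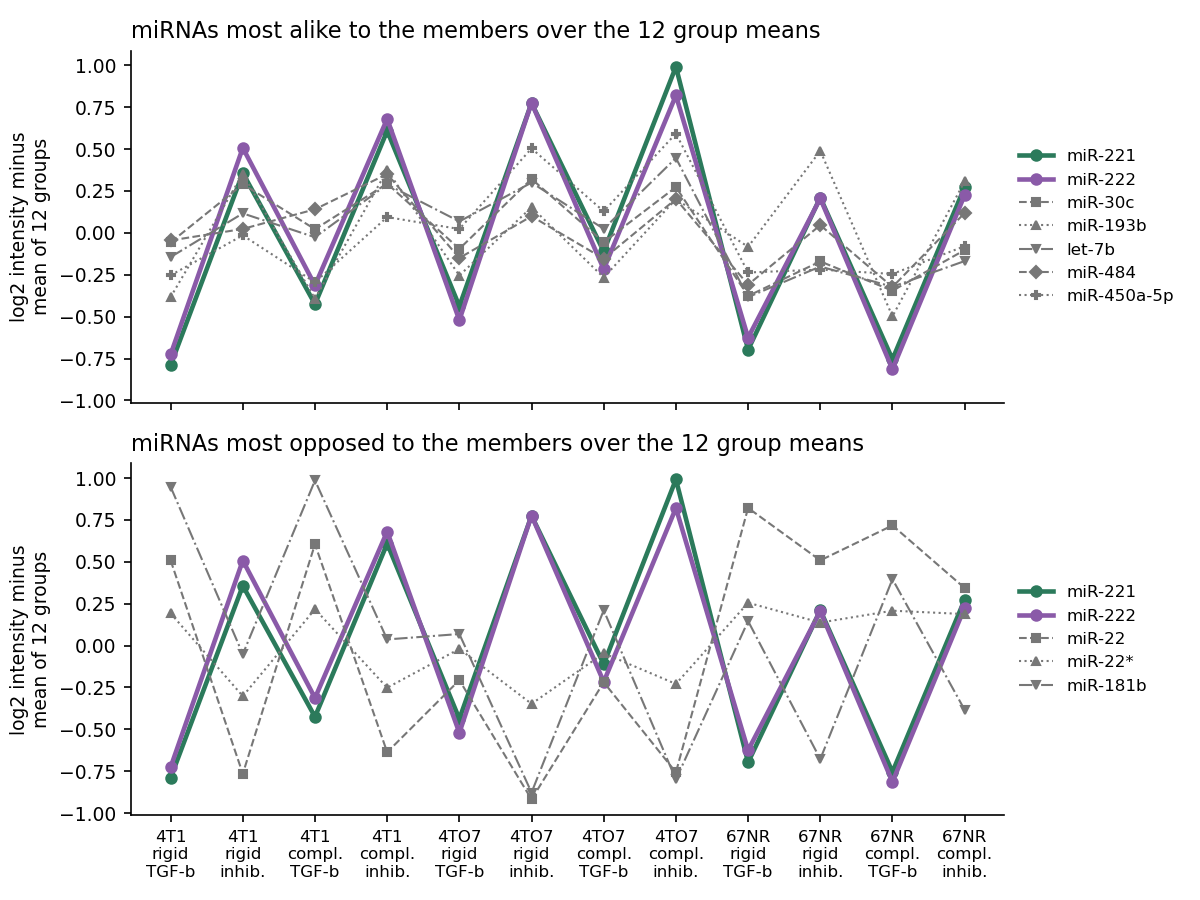
Normalized log2 intensity minus each miRNA's mean over the 12 groups (y axis) for miR-221 and miR-222 with the 5 most alike miRNAs (top) and the 3 most opposed (bottom). Groups run along the x axis by line, microenvironment and treatment, with TGF-beta left of inhibitor; the pair swings by about 1 log2 unit between treatments, the alike miRNAs by 0.26 to 0.63 in the same direction and the opposed ones by 0.27 to 0.92 in the other.

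Other miRNAs reported to act on the same targets were counted from lists. Of 12 miRNAs reported to repress the CDK inhibitors p21, p27 or p57, 11 were tested. With TGF-beta over all lines 1 was higher, miR-181a by 0.88 ± 0.02, and 2 were lower, miR-92b by -0.14 ± 0.03 and miR-92a by -0.11 ± 0.03. The median of the list was 0.01, as was that of all 365 probes, and 39.5% of all probes were called, against 3 of 11 here. In rigid against compliant cultures 4 of the 11 were lower and none higher, beside 21.9% of all probes called and 11.2% called lower. The 4 were miR-181a by -0.19 ± 0.02, miR-92a by -0.11 ± 0.03, miR-93 by -0.09 ± 0.03 and miR-25 by -0.11 ± 0.04. The medians there were -0.06 for the list and 0.01 for all probes.

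Between the lines, all 11 were higher in 4T1 than in 67NR, with a median of 1.35 against -0.22 over all probes, and 10 of 11 were higher in 4TO7 than in 67NR (median 0.95 against -0.15). Of all tested probes 30.7% were called higher in 4T1 than in 67NR and 29.9% in 4TO7 than in 67NR. Several of the 11, such as miR-17, miR-20a and miR-92a, share clusters, so they are not independent of each other.

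Of 6 miRNAs reported to repress estrogen receptor alpha, 1 was higher with TGF-beta (miR-22, by 0.74 ± 0.03) and 2 were lower (miR-193b by -0.63 ± 0.04 and miR-206 by -0.06 ± 0.02), with a list median of -0.03 and beside 39.5% of all probes called. miR-206 was detected on the 8 67NR arrays only, so its value includes lines where it was not detected. None of the 6 was called by limma between rigid and compliant cultures over all lines, where 21.9% of all probes were called.

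Of 75 miRNAs on the array whose RefSeq loci are all on chromosome X, the pair's chromosome, 38 were tested beside the pair. With TGF-beta 5 were higher and 5 lower, beside 39.5% of all probes called in either direction, and their median of 0.01 equalled that of all probes. The lower ones were led by miR-450a-5p (-0.29 ± 0.02), miR-98 (-0.26 ± 0.04) and miR-322 (-0.20 ± 0.03), none of which approached the -1.07 of the pair.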

How the data were processed

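Total RNA of the cultures was profiled on 24 2-dye miRNA arrays with 593 probes, 558 for miRNAs and 35 for spike-ins. Per the file headers, the deposited intensity is a relative intensity on the linear scale, made by the authors with background subtraction and a labelling correction and with no normalization between arrays; the error is on the same scale. The deposited p-value (presence above background) is per probe, and a deposited fail code of 1024 marks a reference signal below background. For 338 probes, the authors' deposited value table gives log2 intensity plus 1 constant per array (-0.29 to 0.24); how the constants were set and the scanner and software are not given in the sources used here.

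Log2 intensities of miRNA probes were quantile normalized, and probes detected (p under 0.05) on both arrays of at least 1 group, with the fail code on fewer than 12 arrays, were kept (365). Group means were fitted with limma 3.58.1 in R 4.3.3 (12 residual degrees of freedom, eBayes with trend, Benjamini-Hochberg adjustment over the 365 probes of each comparison, calls at adjusted p under 0.05). The script was tested on simulated data. Depth on arrays is signal over background, and the number of arrays limits the precision. Alternatives were 4 other scalings, no detection filter, slide as a fixed or random block, set number as a replicate block, array weights and leaving out each array. Set numbers were checked for pairing: deviations of same-numbered arrays correlated at 0.23 to 0.49 in 4T1 (6 of 6 pairs of groups over 0.1), at -0.16 to 0.38 in 4TO7 (3 of 6) and at -0.09 to 0.28 in 67NR (2 of 6). Over all 66 pairs, those between lines included, the correlations ran from -0.33 to 0.49 and 32 were over 0.1. Only in 4T1 did every pair pass 0.1, and this does not show that the sets pair the arrays.

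The named miRNAs are the pair, the 5 most and 3 least correlated with it over group means, the 3 most correlated after line centring, and up to 3 members of each list with the smallest p for TGF-beta. Markers were lists of epithelial, mesenchymal, endothelial, blood, muscle, and neural and liver miRNAs. miR-206, a muscle marker, was detected on the 8 67NR arrays only, and miR-122, a liver marker, on all 24. Members and lists were chosen with earlier results of these data known. One list of miRNAs grouped by target is not reported here. miR-25 and miR-93 were named after their values were seen. Of 545 probes with a single name, 458 matched a RefSeq mature miRNA.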

Additional observations from a re-analysis of the deposited data

Results flagged for a closer look

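4 results for miR-222 stood out because the same contrast gave different values in different lines, by a test of the difference itself. The TGF-beta effect was lower in 4TO7 than in 67NR by -0.23, a difference that was not called under the alternative scalings and turned to 0.22 under spike-in scaling. The rigidity effect was lower in 4TO7 than in 67NR by -0.26 and lower in 4T1 than in 67NR by -0.38, and its F test between the 3 lines gave 16.2. The F test and the 4T1 difference were called under every alternative run other than spike-in scaling.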

How the results depend on the processing

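TGF-beta against inhibitor was called for both miRNAs over all lines and in each line under every alternative run. Over all lines the values lay between -1.14 and -1.01 for miR-221 and between -1.09 and -0.93 for miR-222. Of 59 tested results on the pair, 27 kept direction and call under every alternative and 39 under every one but spike-in scaling. Where a call changed, the cause was not tested.

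Spike-in scaling moved the median of all tested probes for TGF-beta to 0.12 over all lines (0.26 in 4T1, 0.26 in 4TO7 and -0.15 in 67NR). Under it the TGF-beta effect was not called in compliant 4T1 (miR-221 -0.77, miR-222 -0.72) or in compliant 4TO7 (-0.82 and -0.70). Nor was rigidity called over all lines (-0.26 and -0.18), in 4T1 (-0.54 and -0.51) or for miR-222 with TGF-beta (-0.24), nor its differences for miR-222 (F 4.98, 4T1 minus 67NR -0.77, 4TO7 minus 67NR -0.53). It turned the TGF-beta differences from 67NR to 0.39 (miR-221) and 0.25 (miR-222) in 4T1 and to 0.24 and 0.22 in 4TO7. The rigidity values in 67NR were 0.16 for miR-221 over both treatments, and 0.077 (miR-221) and 0.16 (miR-222) with inhibitor. Between lines it gave miR-221 -0.13 for 4T1 against 4TO7 and 0.14 for 4T1 against 67NR, and miR-222 0.089 for 4T1 against 4TO7.

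The authors' value table, median scaling and the median over probes detected on every array, in that order, gave the following. The TGF-beta difference of miR-222, 4TO7 minus 67NR, was -0.21, -0.18 and -0.23, not called. Rigidity was called for miR-221 in 4TO7 (-0.31, -0.32 and -0.36) and with TGF-beta (-0.25, -0.24 and -0.24). It turned above 0 in 67NR for miR-221 (0.0015, 0.021 and 0.017) and for miR-222 with inhibitor (0.018, 0.0026 and 0.023). Median scaling also gave miR-221 0.046 for 4T1 against 67NR, not called, and 0.0087 for its TGF-beta difference, 4T1 minus 67NR. The detected-probe median called miR-222 rigidity in 4TO7 (-0.23) and the miR-221 rigidity difference 4TO7 minus 67NR (-0.38), and turned 4T1 minus 4TO7 to 0.038. Under each constant per array, spike-in scaling included, the miR-221 minus miR-222 response to TGF-beta was -0.085.

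With no detection filter, calls were lost for miR-222 in 4TO7 minus 67NR (TGF-beta -0.23, rigidity -0.26) and for miR-221 rigidity in 4T1 (-0.31). Array weights lost the last too (-0.31). Slide as a fixed block lost these 3 (-0.22, -0.27 and -0.32) and miR-221 rigidity over all lines (-0.18), and turned miR-221 rigidity in 67NR to 0.066 and with inhibitor to 0.026. The set number as replicate block lost miR-221 rigidity in 4T1 (-0.31), called miR-222 rigidity in 4TO7 (-0.17) and the TGF-beta F test of miR-222 (7.71), and changed no other call of the pair.

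Leaving out 1 array at a time changed no TGF-beta call of the pair in any line or setting. For miR-221 the ranges were -0.41 to -0.20 for rigidity in 4T1 (called without 7 of the 24 arrays in turn), -0.35 to -0.19 in 4TO7, -0.056 to 0.051 in 67NR and -0.17 to 0.044 there with inhibitor, -0.27 to -0.16 with TGF-beta and -0.25 to -0.11 with inhibitor. Its rigidity differences ran from -0.41 to -0.20 for 4T1 minus 67NR and from -0.14 to 0.070 for 4T1 minus 4TO7 (F 2.09 to 7.79), and its TGF-beta differences from -0.039 to 0.17 for 4T1 minus 4TO7 and from -0.11 to 0.037 for rigid minus compliant. The 2 compliant inhibitor arrays of 4T1 set most of these ends: without set 1 the rigidity F test (7.79), its 4T1 minus 67NR difference (-0.41) and rigidity with inhibitor (-0.25) were called. For miR-222 the ranges were -0.27 to -0.20 for the TGF-beta difference 4TO7 minus 67NR, -0.23 to -0.13 for 4T1 minus 67NR (F 4.19 to 9.28), -0.29 to -0.22 for the rigidity difference 4TO7 minus 67NR, -0.19 to -0.16 for rigidity in 4TO7 and -0.091 to 0.050 in 67NR with inhibitor. The miR-221 minus miR-222 response to TGF-beta ran from -0.034 to 0.034.

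Counts of called probes moved by over 1.5 times in these cases. For TGF-beta, 116 in 4T1 became 50 with slide as a fixed block, and 40 in 67NR became 63 with array weights, 61 in the authors' table and 70 with the replicate block. For rigidity, 80 over all lines became 39 and 27 in 4T1 became 12 with slide as a fixed block, and 10 in 4TO7 became 21 with the detected-probe median and 18 with the replicate block. The F test of the TGF-beta effect called 53, and 81 with the replicate block. Spike-in scaling left 25 of 144 for TGF-beta over all lines, 22 in 4T1, 18 in 4TO7, 11 in 67NR, 3 of 80 for rigidity, 3 in 4T1, 1 in 4TO7, 4 in 67NR, 112 of 230 for 4T1 against 4TO7, and 18 and 4 in the F tests. Leaving out 1 array gave 14 to 33 for rigidity in 4T1 (moved over 1.5 times by set 2 of compliant TGF-beta 4T1 and set 1 of rigid inhibitor 4T1), 7 to 18 in 4TO7 (by both compliant inhibitor arrays of 4T1) and 14 to 38 for the rigidity F test, against 30 (by compliant inhibitor 4TO7 set 2, compliant inhibitor 67NR set 1, and set 2 of rigid TGF-beta and of rigid inhibitor 67NR).

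The split of calls into higher and lower also moved with the scaling. For TGF-beta in 4T1 it was 46 and 70, but 77 and 55 in the authors' table, 80 and 54 with the detected-probe median and 17 and 5 with spike-ins. In 4TO7 it was 35 and 43, but 45 and 35 in the authors' table, 27 and 53 with median scaling and 15 and 3 with spike-ins. In 67NR it was 12 and 28, but 35 and 26, 5 and 41 and 2 and 9 in the same order, and 16 and 22 with the detected-probe median. For rigidity it was 39 and 41 over all lines, but 20 and 45 with the detected-probe median and 0 and 3 with spike-ins. In 4T1 it was 13 and 14, but 11 and 18 in the authors' table and 0 and 3 with spike-ins. In 4TO7 it was 3 and 7, but 5 and 7 in the authors' table, 3 and 18 with the detected-probe median and 0 and 1 with spike-ins. In 67NR it was 23 and 17, but 4 and 0 with spike-ins.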
